A study of Mus musculus with 8 samples.

Results

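The genes described here are 9 lineage and hormone receptor genes of the mouse mammary gland, taken as the rows of the count table whose gene symbol is Esr1, Pgr, Prlr, Stat5a, Gata3, Foxa1, Elf5, Cd24a or Kit. All 9 were among the 25413 genes of the table, and 5 of them (Esr1, Stat5a, Gata3, Foxa1 and Cd24a) had enough counts to be tested with the 13716 genes that passed the filter on low counts. The other 4 (Pgr, Prlr, Elf5 and Kit) had from 0 to 3 counts over all 8 libraries together. The libraries came from spheroids, that is cells grown in 3D culture, of 2 mouse lines that the labels call mammary epithelial. The EpH4-AS line is labelled AS-transformed, and the EpH4 line is labelled WT. Each line was either given PM2.5, the fine fraction of airborne particulate matter, or left untreated as the control. This gave 4 groups of 2 libraries, which were EpH4-AS with PM2.5, EpH4-AS untreated, EpH4 with PM2.5 and EpH4 untreated. The labels give neither the dose nor the time of the exposure, do not spell out AS, and leave unstated if the libraries within a group were separate cultures, so the p-values measure the spread between libraries, which may be technical. Each line is 1 line, so a difference between EpH4-AS and EpH4 is a difference between these lines.

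The mammary gland holds an outer basal layer and an inner luminal layer, and the luminal layer holds hormone-sensing cells and alveolar progenitors. Oestrogen, progesterone and prolactin reach the gland through nuclear receptors (Esr1, Pgr) and a cytokine receptor (Prlr), and prolactin acts through the kinase JAK2 and the transcription factor STAT5A. Gata3 and Foxa1 encode transcription factors of luminal and hormone-sensing cells, Elf5 encodes an ETS factor of the alveolar lineage, and Cd24a and Kit encode surface proteins that are used to sort luminal cells and luminal progenitors.

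Total counts per library ran from 15393256 to 27765982, with 15393256 to 18334052 in EpH4-AS libraries and 24608176 to 27765982 in EpH4 libraries. The labels give 1 batch. The share of gene reads that fell outside exons was 3.39% to 3.59% in EpH4-AS libraries and 11.3% to 12.5% in EpH4 libraries, so a property of the libraries moved with the line, and its part in the differences between the lines was not tested. Levels below are in CPM, that is counts scaled to library size, here with TMM, a normalization for library composition, and levels of different genes are compared only as the authors' RPKM, which also divides by exon length. A difference was called at an adjusted p under 0.05 in edgeR's quasi-likelihood test. At that threshold 89.2% of all tested genes were called between the untreated lines and 89% between the exposed lines, so a call between the lines is not particular to any gene. Of all tested genes, 43.6% were higher and 45.7% lower in untreated EpH4-AS than in untreated EpH4. A list count near these shares is not a result about that list. PM2.5 gave calls for 11.1% of tested genes in EpH4-AS and 27.2% in EpH4.

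A group was taken to be at the floor when its 2 libraries held 3 counts or fewer together. Pgr had no count in any library. Prlr was listed with 2 and 1 counts in the EpH4-AS libraries with PM2.5 and 0 in the other 6 libraries. Elf5 had 1 count in 1 EpH4-AS library with PM2.5, and Kit had 1 count in 1 untreated EpH4 library. These 4 genes were therefore at the floor in all 4 groups. A count of 0 allows a level of up to 0.0844 CPM in EpH4-AS with PM2.5, 0.0925 CPM in untreated EpH4-AS, 0.0593 CPM in EpH4 with PM2.5 and 0.0570 CPM in untreated EpH4, taking 3 counts over each group as the limit. These limits cover counting error only. Reads outside exons did not change that picture, with 2 such reads for Pgr, 8 for Prlr, 2 for Elf5 and 4 for Kit over all 8 libraries. Foxa1 was above the floor in both EpH4-AS groups (68 counts with PM2.5 and 51 counts untreated) and at it in both EpH4 groups (2 counts with PM2.5 and 0 counts untreated). Esr1, Stat5a, Gata3 and Cd24a were above the floor in every group.

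**Figure D1:**
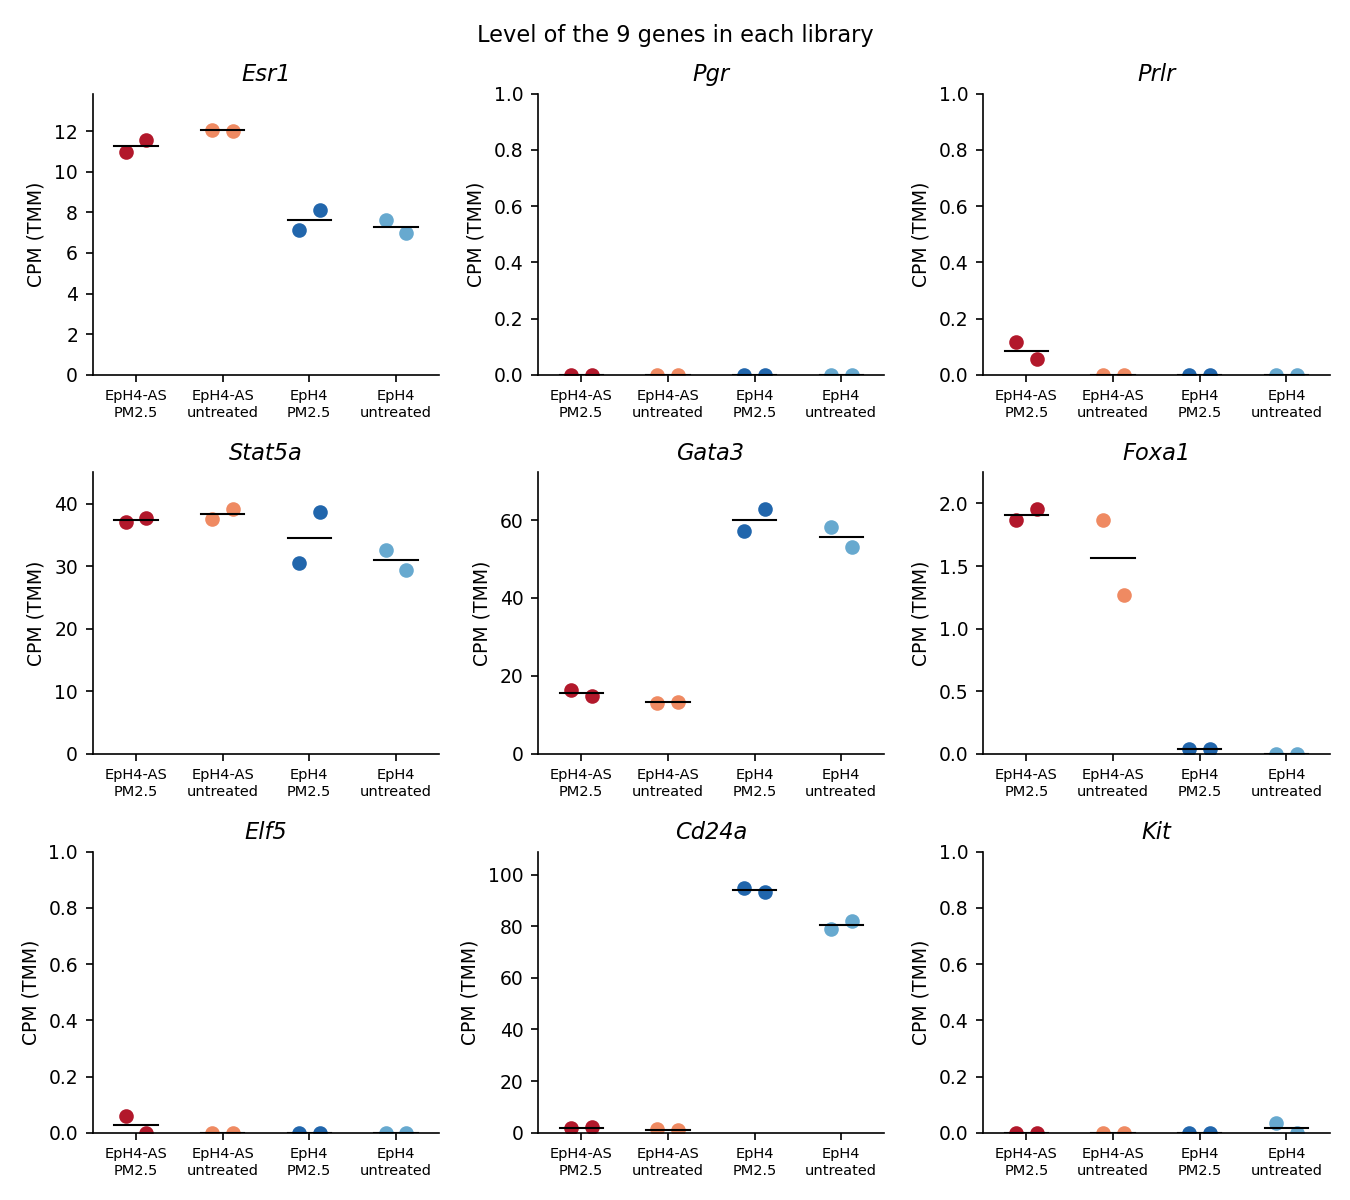
Level of each of the 9 genes in CPM (vertical axes, linear, a separate scale for each panel), with 1 point per library and a line at the mean of the 2 libraries. Groups run from left to right as EpH4-AS with PM2.5, EpH4-AS untreated, EpH4 with PM2.5 and EpH4 untreated. Gata3 and Cd24a sit far lower in all 4 EpH4-AS libraries, Esr1 and Foxa1 sit higher there, and Pgr, Prlr, Elf5 and Kit hold 3 counts or fewer over all libraries.

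Per exon length, the order of the genes differed between the lines. In EpH4-AS with PM2.5, Stat5a was highest at 8.46 ± 0.143 RPKM, followed by Gata3 at 4.21 ± 0.311 and Esr1 at 1.35 ± 0.0573, and then by Cd24a at 0.918 ± 0.212 and Foxa1 at 0.555 ± 0.0209 (SD, n = 2 each). In untreated EpH4-AS the same 3 genes led, with Stat5a at 8.85 ± 0.344 RPKM, Gata3 at 3.63 ± 0.0538 and Esr1 at 1.47 ± 0.0123, while Cd24a at 0.542 ± 0.138 and Foxa1 at 0.464 ± 0.122 overlapped. In EpH4 with PM2.5, Cd24a was highest at 38.3 ± 0.0163 RPKM, and Gata3 at 14.5 ± 1.11, Stat5a at 6.98 ± 1.24 and Esr1 at 0.813 ± 0.0813 followed. Untreated EpH4 had the same order, with Cd24a at 32.7 ± 0.343 RPKM, Gata3 at 13.4 ± 1.10, Stat5a at 6.24 ± 0.572 and Esr1 at 0.778 ± 0.0580. Cd24a was thus the highest of the 9 genes in EpH4 and, by mean, the fourth in EpH4-AS, where it overlapped Foxa1 in the untreated group.

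The epithelial label was checked against marker genes, and the defining epithelial markers were near absent in both lines. Cdh1, which encodes E-cadherin, averaged 0.0563 CPM in EpH4-AS with PM2.5, 0.0316 CPM in untreated EpH4-AS, 0.0587 CPM in EpH4 with PM2.5 and 0.134 CPM in untreated EpH4. The luminal keratin gene Krt8 averaged 0, 0.0933, 0.380 and 0.210 CPM in the same 4 groups, Krt19 and the tight junction gene Cldn4 had no count in any library, and Epcam averaged 0.505 and 0.518 CPM in exposed and untreated EpH4-AS and had no count in EpH4. Of 21 genes listed for the luminal layer as a whole, 4 reached a mean of 1 CPM in each group, and the list summed to 49.4 to 49.95 CPM in EpH4-AS libraries with PM2.5, 50.2 to 51.6 CPM in untreated EpH4-AS libraries, 141 to 147 CPM in EpH4 libraries with PM2.5 and 137 to 143 CPM in untreated EpH4 libraries. Cd24a, itself 1 of the 9 members, is on this list and made up most of its sum in EpH4. It averaged 94.0 CPM in EpH4 with PM2.5 and 80.4 CPM in untreated EpH4. The basal keratin gene Krt5 averaged 0.0835 and 0.0617 CPM in exposed and untreated EpH4-AS and 0 in EpH4, whereas Krt14 averaged 0.221, 0.0617, 8.59 and 3.17 CPM in the 4 groups. Other genes of the basal list were well detected, and its 21 genes in the table summed to 1320 to 1327, 1171 to 1184, 1151 to 1176 and 1070 to 1130 CPM in the 4 groups, most of it from the integrin gene Itgb1, with 8, 8, 10 and 11 genes at a mean of at least 1 CPM. Of the 21, 14 were tested, and 5 were higher and 8 lower in untreated EpH4-AS than in untreated EpH4. All tested genes together had 43.6% higher and 45.7% lower. The median log2 difference of the 14 was -3.42 beside -0.05 over all tested genes. Milk protein genes Csn2 and Lalba had no count. These genes were taken for the label check and not by their changes.

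Some markers of other cell types were present, and for fibroblasts most of the list was, but no list was present whole. The 14 fibroblast markers summed to 6878 to 7519 CPM in EpH4-AS libraries with PM2.5, 7702 to 7839 CPM in untreated EpH4-AS libraries, 14929 to 15492 CPM in EpH4 libraries with PM2.5 and 16628 to 17077 CPM in untreated EpH4 libraries, led by Vim (vimentin) and Fn1 (fibronectin). In the same order of groups, 11, 11, 11 and 10 of the 14 had a mean of at least 1 CPM. Thy1 had no count in EpH4-AS, and Fap had none in untreated EpH4. The 9 adipocyte markers summed to 1173 to 1183, 1439 to 1478, 142 to 147 and 167 to 172 CPM in the 4 groups, with 6, 6, 1 and 2 genes at a mean of at least 1 CPM. Among them, the defining adipocyte gene Lep had no count, and Adipoq had counts only in untreated EpH4-AS. Of 8 endothelial markers, 0 reached a mean of 1 CPM in any group. The 8 muscle markers summed to 3.91 to 4.61, 4.68 to 5.24, 16.8 to 18.4 and 15.3 to 16.1 CPM. The 10 leukocyte markers summed to 41.1 to 42.2, 38.8 to 40.2, 195 to 226 and 177 to 178 CPM in the same groups, nearly all of it from Cd68, a lysosomal protein gene of macrophages. Of the 10, 4 were tested and all 4 were lower in untreated EpH4-AS, where 45.7% of all tested genes were lower. Adgre1, at 0 in untreated EpH4-AS, could only be lower there. The median log2 difference of the 4 was -3.07, or -2.34 with Adgre1 set to its bound. A filter of 1 CPM left 2 of the 4 and a fit of 2 groups only left 3. The defining leukocyte gene Ptprc averaged at most 0.0364 CPM in any group and Cd3e had no count. The summed levels of the fibroblast, adipocyte and leukocyte lists differed between the lines along with the 5 tested members, and their part in those differences was not tested. The luminal sum also differed, but in EpH4 it was mostly the member Cd24a itself. In bulk libraries, fewer cells of a type and less RNA per cell cannot be told apart.

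**Figure D2:**
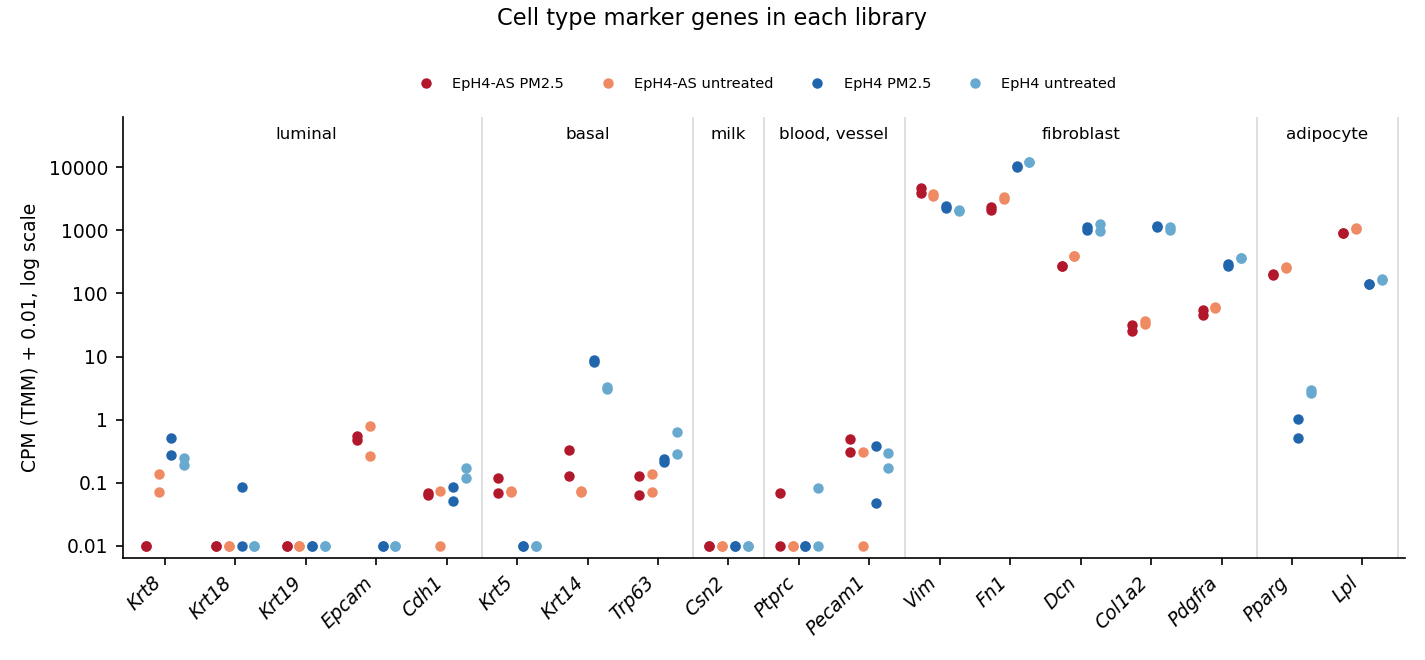
Levels of 18 marker genes in each library, as CPM plus 0.01 on a log axis, so that a library with no count sits at 0.01. Groups are ordered as EpH4-AS with PM2.5, EpH4-AS untreated, EpH4 with PM2.5 and EpH4 untreated. The epithelial genes Cdh1 and Krt8 stay below 1 CPM in every library, while the fibroblast genes Vim and Fn1 exceed 1000 CPM.

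Because Gata3 was low and Foxa1 high in EpH4-AS relative to EpH4, while Kit and Pgr were at the floor in all groups, the upstream sequence of these 4 genes is shown for comparison. Each window is the 250 bases before a RefSeq transcript start on GRCm38.p6, which is not the build of the counts (GRCm39), and it is written 5′ to 3′ on the gene's strand with CpG dinucleotides in capitals. Of the 9 genes, 8 matched an entry in the RefSeq promoter table, and Cd24a did not. The windows lie at chr2:9878601-9878850 on the minus strand for Gata3, chr12:57546112-57546361 on the minus strand for Foxa1, chr5:75574737-75574986 on the plus strand for Kit and chr9:8899583-8899832 on the plus strand for Pgr.
Gata3: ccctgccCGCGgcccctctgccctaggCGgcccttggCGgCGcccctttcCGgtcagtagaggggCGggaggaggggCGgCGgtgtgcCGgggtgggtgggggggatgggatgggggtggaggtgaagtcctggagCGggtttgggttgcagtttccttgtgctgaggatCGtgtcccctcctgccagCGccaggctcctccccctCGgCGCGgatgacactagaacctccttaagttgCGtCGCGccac
Foxa1: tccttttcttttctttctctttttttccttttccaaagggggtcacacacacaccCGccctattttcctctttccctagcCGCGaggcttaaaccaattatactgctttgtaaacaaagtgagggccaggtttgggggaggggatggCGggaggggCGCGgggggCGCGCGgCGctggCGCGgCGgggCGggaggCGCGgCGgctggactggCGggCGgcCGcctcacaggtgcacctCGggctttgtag
Kit: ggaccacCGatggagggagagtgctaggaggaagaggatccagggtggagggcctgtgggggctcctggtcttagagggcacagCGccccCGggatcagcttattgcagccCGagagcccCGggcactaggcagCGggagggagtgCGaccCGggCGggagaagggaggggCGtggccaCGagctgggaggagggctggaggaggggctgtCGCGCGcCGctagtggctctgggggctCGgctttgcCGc
Pgr: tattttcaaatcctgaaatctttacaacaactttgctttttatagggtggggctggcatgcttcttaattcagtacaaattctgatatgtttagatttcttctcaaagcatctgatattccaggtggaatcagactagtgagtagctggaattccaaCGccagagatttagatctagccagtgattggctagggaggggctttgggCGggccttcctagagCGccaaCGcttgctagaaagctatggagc
CpG counts did not sort these windows by level. Foxa1 had 21 CpG, Gata3 19, Kit 17 and Pgr 4, against a median of 6 over 32536 promoters of the same length. Kit, at the floor in every group, thus had nearly as many as Gata3. Searching both strands of the members' windows, the forkhead core TGTTTAC was found in 1 place in the Foxa1 window and in 1 of the Prlr windows, and 3.17% of all promoters hold it. The letters TTCNNNGAA, the core of a STAT site, were found in 1 Esr1 window and in 1 Prlr window, and 7.04% of promoters hold them. AGGTCA, the core that many nuclear receptors bind, was found in both Stat5a windows, and 14.0% of promoters hold it. The letters AGATAA, the core bound by GATA factors, and CCGGAAGT, the core bound by ETS factors, were found in none of the members' windows, which says only that these letters are not in these windows. They occur in 9.97% and 2.90% of all promoters.

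Esr1 (ENSMUSG00000019768, chr10:4561593-4955614, plus strand, GRCm39) encodes oestrogen receptor alpha, a nuclear receptor that acts as a transcription factor when oestrogen binds it. Its level was 10.97 and 11.56 CPM in EpH4-AS with PM2.5, 12.04 and 12.02 CPM in untreated EpH4-AS, 7.12 and 8.10 CPM in EpH4 with PM2.5 and 7.598 and 6.999 CPM in untreated EpH4. All 4 EpH4-AS libraries lay above all 4 EpH4 libraries. Esr1 was 1.65-fold higher in untreated EpH4-AS than in untreated EpH4 (log2 difference 0.72 ± 0.12, SE, adjusted p = 4.03e-05) and 1.48-fold higher in exposed EpH4-AS than in exposed EpH4 (0.57 ± 0.12, adjusted p = 0.000344). The order of the groups by mean was untreated EpH4-AS, EpH4-AS with PM2.5, EpH4 with PM2.5 and untreated EpH4, in which no difference between the treatments of a line was called. Each value rests on 176 to 213 reads per library. Fitted on all reads of the gene instead of exon reads, an alternative added after the values were seen, the log2 difference was 0.58 (adjusted p = 0.000139) between the untreated lines and 0.31 (adjusted p = 0.0119) between the exposed lines.

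Esr2, the gene of oestrogen receptor beta, was also higher in EpH4-AS, at 3.23 ± 0.0336 CPM in EpH4-AS with PM2.5 and 2.19 ± 0.207 CPM in untreated EpH4-AS, against 0.101 ± 0.0893 CPM in EpH4 with PM2.5 and 0.147 ± 0.152 CPM in untreated EpH4. The log2 difference was 3.80 ± 0.49 between the untreated lines and rests on 71 counts in EpH4-AS and 8 in EpH4. Esr2 passed the filter on low counts only through the EpH4-AS libraries, so that it had to differ between the lines. Its p-value is therefore not given as support. The progesterone receptor gene Pgr (ENSMUSG00000031870, chr9:8899834-8968612, plus strand), a classical oestrogen target in the mammary gland, had no count in either line, at any treatment. Other oestrogen-linked genes of hormone-sensing cells divided between the lines. Areg, which encodes the growth factor amphiregulin, was at 24.3 ± 0.645 CPM in EpH4-AS with PM2.5 and 18.2 ± 0.764 CPM in untreated EpH4-AS, against 103 ± 2.35 CPM in EpH4 with PM2.5 and 84.8 ± 3.32 CPM in untreated EpH4. Cited1, a transcriptional coregulator, was at 35.5 ± 4.92 and 25.6 ± 1.64 CPM in exposed and untreated EpH4-AS and had 1 count in each EpH4 group. Of the 20 listed genes of hormone-sensing luminal cells, 11 were tested, and 6 were higher and 5 lower in untreated EpH4-AS than in untreated EpH4, with a median log2 difference of 0.72 beside -0.05 over all tested genes. The members Esr1, Gata3 and Foxa1 are on this list, and its median is the value of Esr1 itself. Foxa1, Esr2 and Cited1 passed the filter only through EpH4-AS, so they had to be higher there. The shares over all tested genes were 43.6% higher and 45.7% lower.

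Of 26 listed steroid and nuclear hormone receptor genes, 20 were tested, and 13 were higher and 4 lower in untreated EpH4-AS than in untreated EpH4. Their median log2 difference was 0.78. Ppara was at 0 in untreated EpH4 and Esr2 passed the filter only through EpH4-AS, so neither could be lower in EpH4-AS. The shares over all tested genes were 43.6% higher and 45.7% lower. On the RPKM scale with limma the 4 lower became 2. The fatty acid sensor gene Pparg was among the largest of these, at 200 ± 2.84 CPM in EpH4-AS with PM2.5 and 256 ± 4.23 CPM in untreated EpH4-AS, against 0.761 ± 0.376 CPM in EpH4 with PM2.5 and 2.77 ± 0.200 CPM in untreated EpH4. Nr1h3, the gene of the oxysterol receptor LXR alpha, was at 36.6 ± 6.32 and 42.9 ± 3.76 CPM in exposed and untreated EpH4-AS and at 1.87 ± 0.263 and 1.48 ± 0.0404 CPM in exposed and untreated EpH4. Of 18 oestrogen receptor coregulator genes, 17 were tested, and 11 were higher and 5 lower in untreated EpH4-AS, with a median of 0.54, beside the same shares over all tested genes. The coactivator gene Ncoa3 was at 157 ± 0.00303 CPM in untreated EpH4-AS and 57.9 ± 1.47 CPM in untreated EpH4, a log2 difference of 1.44 ± 0.05 (adjusted p = 1.29e-12), and the gene of its relative Ncoa1 was at 105 ± 1.58 and 39.9 ± 0.868 CPM in the same order.

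Prlr (ENSMUSG00000005268, chr15:10177324-10349266, plus strand), the gene of the prolactin receptor, was at the floor as given above, so the members of the prolactin pathway that could be compared lay downstream of the receptor. Stat5a (ENSMUSG00000004043, chr11:100750177-100775995, plus strand) was at 37.2 and 37.8 CPM in EpH4-AS with PM2.5, 37.6 and 39.1 CPM in untreated EpH4-AS, 30.5 and 38.7 CPM in EpH4 with PM2.5 and 32.6 and 29.3 CPM in untreated EpH4. The untreated lines did not overlap, and the exposed lines did, because the second EpH4 library with PM2.5 reached the EpH4-AS range. Stat5a was 1.24-fold higher in untreated EpH4-AS than in untreated EpH4 (log2 difference 0.31 ± 0.10, adjusted p = 0.00884), a call that was lost when the second untreated EpH4-AS library was left out (0.27, adjusted p = 0.0685). Between the exposed lines the difference was 0.12 ± 0.10 (adjusted p = 0.254), but without the second EpH4 library with PM2.5 it was 0.29 (adjusted p = 0.00609). The end of Stat5a overlaps the end of Stat3 on the opposite strand, and 8.52% of the 50-base windows of its transcripts occur in transcripts of other genes, mostly Stat5b. Whether the counting used strand or reads that map to several places is not given in the sources used here, so small differences of Stat5a are uncertain.

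The close relative Stat5b was at 105 ± 0.533 CPM in EpH4-AS with PM2.5 and 112 ± 3.21 CPM in untreated EpH4-AS, against 60.1 ± 5.01 CPM in EpH4 with PM2.5 and 62.6 ± 2.98 CPM in untreated EpH4, with a log2 difference of 0.84 ± 0.06 between the untreated lines (adjusted p = 7.46e-09). The kinase gene Jak2 was at 187 ± 8.003 and 153 ± 0.519 CPM in exposed and untreated EpH4-AS and at 100 ± 3.90 and 98.5 ± 1.07 CPM in exposed and untreated EpH4, a difference of 0.63 ± 0.05 between the untreated lines (adjusted p = 2.49e-08). Cish, a STAT5 target that inhibits the pathway and that was chosen after its values were seen, was at 7.41 ± 0.418 and 4.799 ± 0.706 CPM in exposed and untreated EpH4-AS and at 0.681 ± 0.316 and 0.650 ± 0.149 CPM in exposed and untreated EpH4. The growth hormone receptor gene Ghr and Stat6 were lower in EpH4-AS, with log2 differences of -0.98 ± 0.07 (adjusted p = 6.20e-09) and -1.35 ± 0.08 (adjusted p = 1.97e-10) between the untreated lines. Of 28 listed genes of prolactin, JAK and STAT signalling, 25 were tested, and 13 were higher and 10 lower in untreated EpH4-AS, with a median of 0.23. With 43.6% higher and 45.7% lower over all tested genes, this count is not a result about the pathway. Csn3, the gene of the milk protein kappa-casein, had no count in EpH4-AS and was at 0.730 ± 0.0448 CPM in EpH4 with PM2.5 and 2.67 ± 0.287 CPM in untreated EpH4.

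Gata3 (ENSMUSG00000015619, chr2:9861889-9894845, minus strand), the gene of a zinc finger factor that keeps luminal cells differentiated, was at 16.5 and 14.7 CPM in EpH4-AS with PM2.5, 13.1 and 13.2 CPM in untreated EpH4-AS, 57.1 and 62.8 CPM in EpH4 with PM2.5 and 58.3 and 53.2 CPM in untreated EpH4. The lines did not overlap, and within EpH4 the 2 treatments did. Gata3 fell to 0.236-fold of its untreated EpH4 level in untreated EpH4-AS (log2 difference -2.08 ± 0.09, adjusted p = 7.35e-12) and to 0.260-fold between the exposed lines (-1.94 ± 0.08, adjusted p = 9.65e-12). The GATA genes Gata2 and Gata6 differed in the opposite direction, whereas Gata1 had no count in EpH4-AS and some in both EpH4 groups. Gata2, known for its role in blood progenitors, was at 51.3 ± 0.870 and 49.8 ± 2.24 CPM in exposed and untreated EpH4-AS and at 3.25 ± 0.230 and 2.61 ± 0.756 CPM in exposed and untreated EpH4, with a log2 difference of 4.27 ± 0.12 between the untreated lines (adjusted p = 1.16e-13). Gata6, chosen after its values were seen, was at 15.2 ± 1.57 and 14.0 ± 0.138 CPM in EpH4-AS and at 0.101 ± 0.0893 and 0.0761 ± 0.00483 CPM in EpH4, exposed and untreated.

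Foxa1 (ENSMUSG00000035451, chr12:57587414-57593702, minus strand) encodes a forkhead pioneer factor that opens chromatin for the oestrogen receptor. It was at 1.87 and 1.95 CPM in EpH4-AS with PM2.5, 1.87 and 1.26 CPM in untreated EpH4-AS, 0.0381 and 0.0411 CPM in EpH4 with PM2.5 and 0 in both untreated EpH4 libraries. Every EpH4-AS library had at least 20 counts and no EpH4 library had more than 1. Foxa1 passed the filter on low counts only through the EpH4-AS libraries, so that it had to differ between the lines, and its p-values are not given as support. With the 0 counts of untreated EpH4 set to 3 counts over the group, the ratio of untreated EpH4-AS to untreated EpH4 was 27.6, and the exact 95% counting interval of the ratio starts at 21.7. Between the exposed lines the ratio was 48.4, with a 95% counting interval from 12.9 to 407, since it rests on 68 counts in EpH4-AS and 2 in EpH4. Its relatives Foxa2 and Foxa3 stayed at the floor, with 0 counts for Foxa2 and at most 3 counts in any group for Foxa3.

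Elf5 (ENSMUSG00000027186, chr2:103242033-103281334, plus strand) was at the floor in all groups, and the ETS genes related to it differed among themselves. Elf3 had at most 3 counts in a group. Ehf, an epithelial ETS gene that is the nearest protein-coding neighbour before Elf5, held 1 count in EpH4-AS with PM2.5 and 0 in untreated EpH4-AS, while it was at 7.86 ± 0.362 CPM in EpH4 with PM2.5 and 3.96 ± 0.769 CPM in untreated EpH4. The broadly expressed Elf1 was at 51.5 ± 0.805 and 40.2 ± 1.40 CPM in exposed and untreated EpH4-AS and at 49.9 ± 2.08 and 50.3 ± 3.06 CPM in exposed and untreated EpH4. Of 38 listed GATA, FOX and ETS family and lineage factor genes, 26 were tested, and 7 were higher and 18 lower in untreated EpH4-AS than in untreated EpH4. Their median log2 difference was -0.73. Among the 26, Ehf and Msx2 were at 0 in untreated EpH4-AS and Foxa1 in untreated EpH4, so the direction of these 3 was fixed. The shares over all tested genes were 43.6% higher and 45.7% lower.

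Cd24a (ENSMUSG00000047139, chr10:43454280-43460261, plus strand) encodes a small lipid-anchored surface protein by which mammary epithelial cells are sorted, and it showed the widest difference of the 4 genes above the floor in every group. It was at 1.69 and 2.33 CPM in EpH4-AS with PM2.5, 1.38 and 0.949 CPM in untreated EpH4-AS, 94.7 and 93.4 CPM in EpH4 with PM2.5 and 78.9 and 82.0 CPM in untreated EpH4. No libraries of different groups overlapped. Cd24a fell to 0.0146-fold of its untreated EpH4 level in untreated EpH4-AS (log2 difference -6.09 ± 0.12, adjusted p = 3.77e-15) and to 0.0216-fold between the exposed lines (-5.53 ± 0.11, adjusted p = 3.01e-15). The EpH4-AS values rest on 15 to 43 counts per library and the EpH4 values on 2061 to 2486. Of its transcript windows of 50 bases, 2.75% also occur in other transcripts, namely those of Gm6212.

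Kit (ENSMUSG00000005672, chr5:75735576-75817382, plus strand), the gene of the receptor tyrosine kinase of luminal progenitors, was at the floor, while the gene of its ligand was not. Kitl, the stem cell factor gene, was at 31.7 ± 1.72 CPM in EpH4-AS with PM2.5 and 33.9 ± 1.83 CPM in untreated EpH4-AS, against 165 ± 4.35 CPM in EpH4 with PM2.5 and 136 ± 2.26 CPM in untreated EpH4, and was lower in untreated EpH4-AS by a log2 difference of -2.005 ± 0.06 (adjusted p = 2.58e-13). The related receptor gene Pdgfra, which lies next to Kit, was at 50.7 ± 6.17 and 59.2 ± 1.43 CPM in exposed and untreated EpH4-AS and at 284 ± 19.1 and 362 ± 0.298 CPM in exposed and untreated EpH4. Of 20 listed genes of the ligand and of receptor kinases of its class, 16 were tested, and 6 were higher and 9 lower in untreated EpH4-AS, with a median of -0.34. With 43.6% higher and 45.7% lower over all tested genes, this count is not a result about the class. Of 15 surface genes used to sort mammary cells, 11 were tested, and 2 were higher (Itgb1 and Epcam) and 9 lower in untreated EpH4-AS, Cd24a among them. The same shares of 43.6% higher and 45.7% lower over all tested genes stand beside this count. Epcam, with 17 counts in untreated EpH4-AS and 0 in untreated EpH4, was no longer called with a filter of 1 CPM or with a fit of 2 groups only, which left 1 higher. The median of these 11 was -5.01, or -4.67 with the 2 genes that had a group at 0 set to their bound. These were Epcam, at 0 in untreated EpH4, and Itga2, at 0 in untreated EpH4-AS, so the direction of both was fixed. The stem cell and basal marker gene Itga6, which encodes an integrin chain, was at 2.37 ± 0.439 and 2.30 ± 0.574 CPM in exposed and untreated EpH4-AS and at 56.9 ± 0.784 and 53.0 ± 2.25 CPM in exposed and untreated EpH4.

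The list of luminal progenitor and alveolar genes was lower in EpH4-AS as counted by its tested members. Of 18 listed genes, 11 were tested, and 1 was higher and 9 lower in untreated EpH4-AS. Beside this stand shares of 43.6% higher and 45.7% lower over all tested genes. The median log2 difference was -5.80, or -5.19 with the 2 genes at 0 in a group (Ehf and Itga2) set to their bound. Ehf passed the filter only through EpH4, so it had to be lower in EpH4-AS. Among the 18 genes, 10 held 3 counts or fewer in untreated EpH4-AS, against 6 in untreated EpH4. Lcn2, the gene of a secreted protein that binds siderophores, was at 47.2 ± 6.73 CPM in EpH4-AS with PM2.5 and 19.0 ± 2.75 CPM in untreated EpH4-AS, against 1725 ± 56.9 CPM in EpH4 with PM2.5 and 1821 ± 192 CPM in untreated EpH4. Slpi, the gene of a secreted protease inhibitor, was at 30.7 ± 3.04 and 10.3 ± 2.54 CPM in exposed and untreated EpH4-AS and at 1595 ± 313 and 840 ± 281 CPM in exposed and untreated EpH4. Cd14, a surface co-receptor gene used to mark luminal progenitors, was at 1.02 ± 0.131 and 1.05 ± 0.124 CPM in exposed and untreated EpH4-AS and at 64.5 ± 11.1 and 58.8 ± 7.47 CPM in exposed and untreated EpH4.

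Over the comparison of the untreated lines, all 5 tested members were called, with Esr1, Stat5a and Foxa1 higher in EpH4-AS and Gata3 and Cd24a lower, and with the limit on Foxa1 given above. Over the comparison of the exposed lines 4 of 5 were called, all but Stat5a. Over all tested genes, 43.6% were higher and 45.7% lower in untreated EpH4-AS than in untreated EpH4, and 43.5% were higher and 45.5% lower in exposed EpH4-AS than in exposed EpH4, so neither count is a result about these genes.

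For PM2.5, the counts of members called were also near the background, so none of them is a result about these genes. In EpH4, where 27.2% of tested genes were called (14.3% higher and 12.9% lower), 1 of 5 members was called. This was Cd24a, which rose 1.17-fold to 94.0 ± 0.948 CPM with PM2.5, against 80.4 ± 2.18 CPM untreated (log2 difference 0.23 ± 0.06, adjusted p = 0.0145), with both exposed libraries above both untreated ones. The call did not hold without the first exposed EpH4 library (adjusted p = 0.0604), without the second (adjusted p = 0.0547) or by DESeq2 (adjusted p = 0.0872). The differences of the others in EpH4 were 0.10 ± 0.07 for Gata3 (adjusted p = 0.302), 0.15 ± 0.09 for Stat5a (adjusted p = 0.258) and 0.06 ± 0.12 for Esr1 (adjusted p = 0.776). In EpH4-AS, where 11.1% of tested genes were called (6.39% higher and 4.75% lower), 0 of 5 members were called by edgeR and 0 by DESeq2, while Cd24a and Gata3 had an unadjusted p under 0.05. Cd24a was at 2.01 ± 0.454 CPM with PM2.5 and 1.17 ± 0.308 CPM untreated (0.79 ± 0.25, adjusted p = 0.0610), and Gata3 was at 15.6 ± 1.23 CPM with PM2.5 and 13.2 ± 0.0654 CPM untreated (0.24 ± 0.10, adjusted p = 0.162). Esr1 differed by -0.09 ± 0.12 (adjusted p = 0.681), Stat5a by -0.03 ± 0.10 (adjusted p = 0.887) and Foxa1 by 0.28 ± 0.32 (adjusted p = 0.639). No PM2.5 difference of Foxa1 is given for EpH4, where both groups were at the floor. The difference of the PM2.5 effect between EpH4-AS and EpH4, in which 14.1% of tested genes were called (7.6% higher and 6.49% lower), gave 0 of 5 members. For Cd24a it was 0.56 ± 0.26 (adjusted p = 0.176, the 1 member with an unadjusted p under 0.05) and for Stat5a -0.19 ± 0.14 (adjusted p = 0.413).

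**Figure D3:**
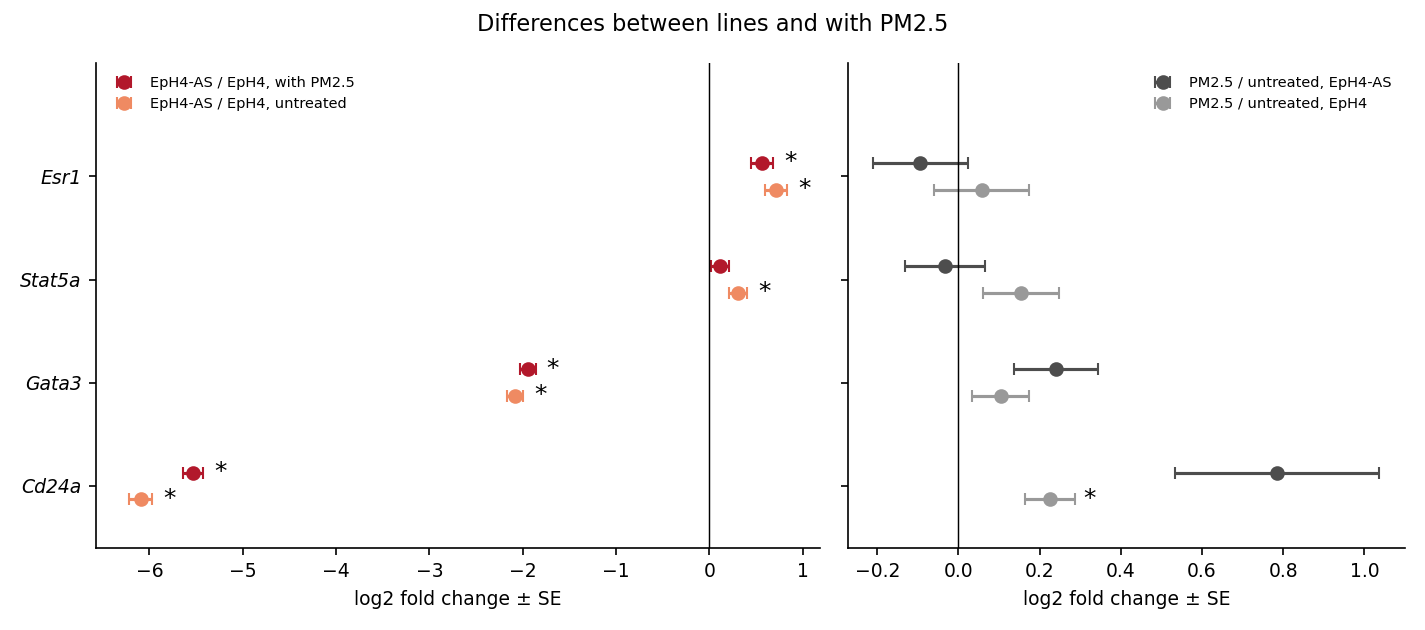
Log2 differences of Esr1, Stat5a, Gata3 and Cd24a with their standard errors as bars, for EpH4-AS against EpH4 in the left panel and for PM2.5 against untreated in the right panel, where a star marks an adjusted p under 0.05. Foxa1 is not drawn because its EpH4 groups are at the floor. Line differences reach -6.09 for Cd24a, while the PM2.5 differences lie between -0.09 and 0.79.

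Several listed genes of the same pathways and lineages changed with PM2.5, as did 14.3% of all tested genes upward and 12.9% downward in EpH4. In EpH4, Kitl was higher with PM2.5 than untreated by 0.28 ± 0.05 (adjusted p = 0.00167), and the T-box gene Tbx3 of hormone-sensing cells by 0.57 ± 0.06 (142 ± 9.99 CPM with PM2.5 and 95.4 ± 3.69 CPM untreated, adjusted p = 2.67e-05). Of the 11 tested genes of hormone-sensing luminal cells, 4 were higher with PM2.5 in EpH4 (Ly6a, Tbx3, S100a6 and Areg) and 1 lower (Xbp1, a call that was lost without the second library of either EpH4 group). The largest was Ly6a, a surface marker gene, at 80.8 ± 2.45 CPM with PM2.5 and 29.8 ± 8.74 CPM untreated (1.43 ± 0.13, adjusted p = 6.10e-06). The 11 tested luminal progenitor and alveolar genes had 3 higher in EpH4 with PM2.5 (Slpi, Itgb3 and Ehf), of which Ehf differed by 0.98 ± 0.18 (adjusted p = 0.00135), and 1 lower (Lurap1l, lost without the first library of either EpH4 group). The cytokine signalling inhibitor gene Socs3 was higher in EpH4 with PM2.5, at 121 ± 16.8 CPM against 75.9 ± 9.82 CPM untreated (0.68 ± 0.09, adjusted p = 0.000139).

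In EpH4-AS the luminal progenitor and alveolar list had 4 genes higher with PM2.5 (Lcn2, Slpi, Id2 and Cebpb) and none lower among 11, where 6.39% of all tested genes were higher. Lcn2 differed by 1.32 ± 0.12 (adjusted p = 1.30e-05), and Cebpb, the gene of a transcription factor of alveolar differentiation, by 0.38 ± 0.05 (304 ± 4.41 CPM with PM2.5 and 234 ± 4.52 CPM untreated, adjusted p = 0.000252). The count was 3 without the first untreated EpH4-AS library (Slpi, adjusted p = 0.0579) and 3 without the second (Id2, adjusted p = 0.0506). For 3 of these genes the effect of PM2.5 itself differed between EpH4-AS and EpH4, by 1.40 ± 0.15 for Lcn2 (adjusted p = 8.17e-05), 1.02 ± 0.17 for Id2 (adjusted p = 0.00146) and 0.34 ± 0.07 for Cebpb (adjusted p = 0.00517). Socs2, another STAT5 target that restrains the pathway, was at 30.0 ± 1.57 CPM with PM2.5 and 22.0 ± 0.369 CPM untreated in EpH4-AS and at 12.6 ± 1.46 CPM with PM2.5 and 16.3 ± 1.36 CPM untreated in EpH4. Its PM2.5 effect differed between the lines by 0.82 ± 0.14 (adjusted p = 0.00156), and the call within EpH4-AS was lost without either untreated library or without the first exposed one (adjusted p from 0.0705 to 0.0947), as was the call within EpH4 without the first library of either group (adjusted p of 0.0740 and 0.119).

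The authors' tables also hold all reads of each gene, so the share outside exons could be taken for each member. For Gata3 it was 4.41% and 7.19% in EpH4-AS with PM2.5, 7.63% and 8.73% in untreated EpH4-AS, 35.5% and 35.1% in EpH4 with PM2.5 and 28.3% and 28.2% in untreated EpH4. For Esr1 it was 4.08% and 2.29%, 2.44% and 3.06%, 37.7% and 27.3%, and 24.0% and 27.9% in the same 4 groups. Stat5a had 2.60% and 1.56%, 2.04% and 1.90%, 13.9% and 10.5%, and 11.7% and 12.2%. In these 3 genes every EpH4 library was above every EpH4-AS library, as was the share over all genes. Cd24a had at most 2.27% in any library, and this value rests on a single EpH4-AS library with few reads.

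Reads outside exons were also fitted as a table of their own over 12440 genes, a test added after these shares were seen. They were scaled to their own totals, which largely takes out the higher share of such reads in EpH4 over all genes. Their log2 differences between the lines are therefore not on the scale of the exon counts. In EpH4-AS they rest on 13 to 21 reads per library for Gata3 and 5 to 8 for Esr1. Gata3 outside exons was lower in EpH4-AS, by -1.68 ± 0.22 between the untreated lines (adjusted p = 1.50e-09), where 68.4% of genes were called, and by -2.45 ± 0.22 between the exposed lines (adjusted p = 2.95e-15), where 66.5% were called. With PM2.5 in EpH4 it was higher by 0.51 ± 0.11 (adjusted p = 0.000337), where 14.3% of genes were called, while its exon counts differed by 0.10 ± 0.07 (adjusted p = 0.302). With PM2.5 in EpH4-AS it differed by -0.26 ± 0.35 (adjusted p = 0.866), where 1.25% of genes were called, and the difference of the PM2.5 effect was -0.77 ± 0.36 (adjusted p = 0.329), where 2.19% were called. Esr1 outside exons differed by -0.36 ± 0.45 between the untreated lines (adjusted p = 0.482) and by -0.68 ± 0.41 between the exposed lines (adjusted p = 0.133), and neither was called. As plain reads, Esr1 had 5 and 6 outside exons in the untreated EpH4-AS libraries and 66 and 68 in the untreated EpH4 libraries. With PM2.5 in EpH4, Esr1 outside exons differed by 0.46 ± 0.20 (adjusted p = 0.120).

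**Figure D4:**
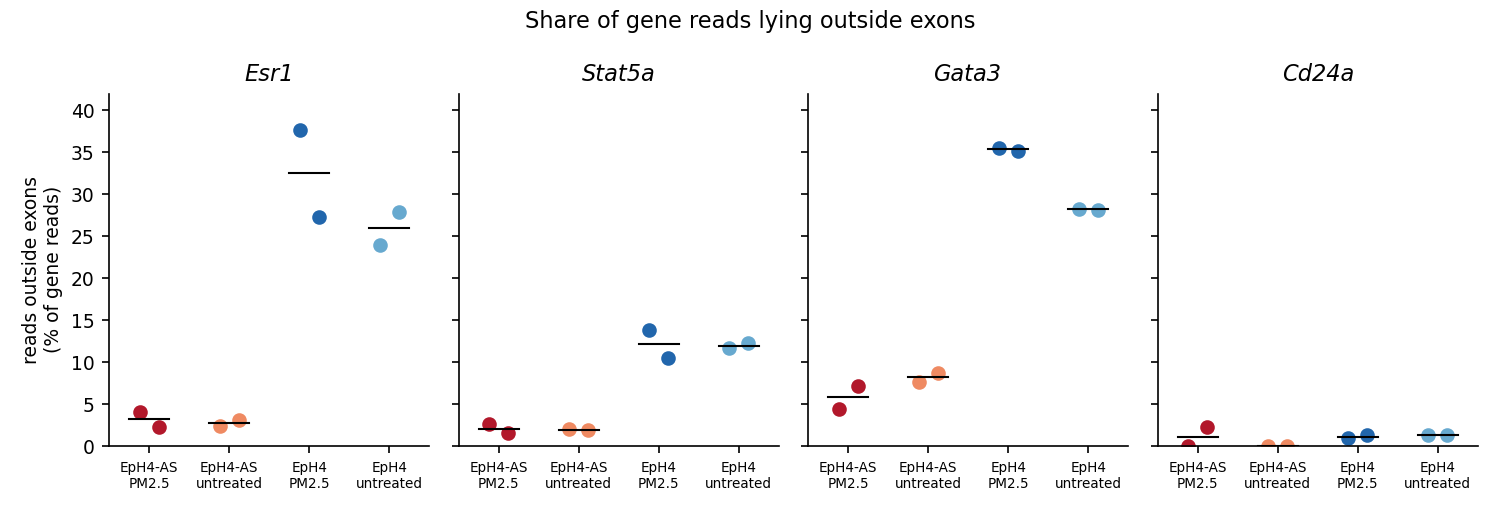
Share of each gene's reads that fell outside exons, in percent, for Gata3, Esr1, Stat5a and Cd24a, with 1 point per library and the groups from left to right as EpH4-AS with PM2.5, EpH4-AS untreated, EpH4 with PM2.5 and EpH4 untreated. The shares of Gata3 are between 4.41% and 8.73% in EpH4-AS and between 28.2% and 35.5% in EpH4.

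The genes with the profile most like each tested member were taken by the Euclidean distance of centred log2 CPM over the 8 libraries, among 11649 genes with a mean of at least 1 CPM. For Esr1 they were Exoc3 (distance 0.0859), Rab5c (0.101) and Adam10 (0.111), and for Stat5a they were Galnt2 (0.169), Uros (0.171) and Eif2d (0.183). For Gata3 they were Dck (0.165), Ndufc2 (0.172) and Piezo1 (0.178). Foxa1 and Cd24a had no gene as close, with Nsd1 (0.489), Tmem156 (0.539) and Dennd2a (0.548) for Foxa1 and Prkg2 (0.537), Tmem176b (0.583) and Cpe (0.614) for Cd24a. Prkg2, for example, was at 1.79 and 1.17 CPM in exposed and untreated EpH4-AS and at 98.2 and 89.7 CPM in exposed and untreated EpH4. The libraries are shared by all these profiles, and the distances are a description without a test.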

How the data were processed

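RNA of spheroids of 2 mouse mammary lines, EpH4-AS and EpH4, with PM2.5 or untreated, was sequenced as stranded poly(A) libraries in 1 batch, per the labels. The authors deposited raw counts of exon reads per gene, RPKM (counts scaled to exon length and library size) and, per library, counts of all reads of a gene. The build is GRCm39, per the submitters' processing notes. No aligner, counter or annotation release is named, that is, not given in the sources used here. All 8 count columns were equal in the tables that repeat them, and 0 columns belonged to other samples.

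Counts were filtered with filterByExpr (13716 of 25413 genes, 99.964% of counts), scaled by TMM and tested with the quasi-likelihood method of edgeR 4.0.16 (R 4.3.3), in 1 model of all 4 groups with 4 residual degrees of freedom, a common dispersion of 0.00218 and a biological coefficient of variation of 4.67%. The 5 contrasts were PM2.5 in each line, the lines at each treatment, and the difference of the PM2.5 effects. Tests were two-sided, with Benjamini-Hochberg adjustment over all tested genes per contrast and a threshold of 0.05. The comparisons of PM2.5 within a line and of the lines share libraries. Library totals of 15393256 to 27765982 counts set the precision of low genes. Log2 CPM for the profile distances used a prior count of 2. Simulated counts with known changes were used to test the scripts. Alternatives were other scalings and filters, DESeq2 1.42.0, limma 3.58.1 on log2 RPKM with a pseudocount of 1 or 0.1, a replicate block, fits on 2 groups and leaving out each library. A crossed block, all reads of a gene in place of exon counts, and the genes beside each member were added after seeing the data.

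The 9 members and the gene lists were chosen with earlier results of these data known. Genes named beside the members were their partners by family or pathway, up to 4 genes per list with the smallest adjusted p or the highest mean level, and the 3 nearest profiles per member, with exceptions stated. Shared transcript windows were counted in GENCODE M21 transcripts.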

Additional observations from a re-analysis of the deposited data

How the results depend on the processing

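Between the lines, all alternatives kept the direction of the 5 tested members. The limits lie in the PM2.5 comparisons and in Stat5a. In EpH4 the 1 member called for PM2.5 became 0 with the DESeq2 Wald test and with limma on log2 RPKM plus 1 or plus 0.1, ran from 0 to 1 when a library was left out, and became 2 with all reads of a gene in place of exon counts (Cd24a, adjusted p = 0.0348, and Gata3, 0.24, adjusted p = 0.0235), an alternative chosen after seeing the data. Without the first EpH4 library with PM2.5 the 1 call was Stat5a (0.32, adjusted p = 0.0140) in place of Cd24a. In EpH4-AS the 0 members called became 1 with limma on log2 RPKM plus 0.1 (Cd24a, 0.67, adjusted p = 0.0468). For the difference of the PM2.5 effects the count ran from 0 to 1 when a library was left out (Stat5a, -0.35, adjusted p = 0.0493, without the first EpH4 library with PM2.5). Stat5a between the exposed lines was called with limma (0.25, adjusted p = 0.0450, and 0.29, adjusted p = 0.0464) and with all reads of the gene (0.22, adjusted p = 0.0411). The causes were not tested. Over all genes, the 3726 calls for PM2.5 in EpH4 became 2330 with DESeq2 and as few as 2145 without 1 library, the 1529 calls in EpH4-AS became 2995 with 2 groups only and 363 to 695 without 1 library, and the 1932 calls for the difference became 875 to 1246 without 1 library. The RPKM scale moved the median log2 difference of all genes between the untreated lines from -0.05 to 0.10 and 0.14. Replicate numbers did not pair the samples (correlation of same-numbered libraries -0.101 in EpH4 and 0.0646 in EpH4-AS), and a fit with the replicate number as a block left 1, 0, 5, 4 and 0 members called in the 5 contrasts, as without it. A crossed block, chosen after seeing the data, also left 1 member called for PM2.5 in EpH4, with 4118 genes in all.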

Other observations

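Genes beside the members, chosen after their values were seen, often differed between the lines in ways of their own. Ccdc170, 49.4 kb before Esr1, was at 12.01 ± 1.97 CPM in EpH4-AS with PM2.5 and 14.5 ± 1.06 CPM in untreated EpH4-AS, against 0.0587 ± 0.0248 CPM in EpH4 with PM2.5 and 0.170 ± 0.0160 CPM in untreated EpH4 (SD, n = 2 each). Taf3, 24.5 kb after Gata3, was at 61.2 ± 2.45 and 55.4 ± 1.10 CPM in exposed and untreated EpH4-AS and at 24.5 ± 0.419 and 27.7 ± 0.818 CPM in exposed and untreated EpH4, the opposite direction to Gata3. Cat, the catalase gene 2.86 kb after Elf5, was at 131 ± 1.503 and 99.95 ± 0.668 CPM in exposed and untreated EpH4-AS and at 153 ± 4.195 and 93.6 ± 0.531 CPM in exposed and untreated EpH4, while Elf5 stayed at the floor. Arhgap42, 25.7 kb after Pgr, was at 0.611 ± 0.287 and 0.718 ± 0.505 CPM in exposed and untreated EpH4-AS and at 24.8 ± 1.80 and 21.0 ± 1.17 CPM in exposed and untreated EpH4. These are levels without a test of position.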
